A study of Mus musculus with 35 samples.

Results

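Inflammatory chemokines and cytokines are described here as 10 genes chosen by name from the 53465 genes of the bulk table. They are the C-C chemokines *Ccl2*, *Ccl3*, *Ccl4*, *Ccl7* and *Ccl12*, the C-X-C chemokine *Cxcl10*, the cytokines *Il1a*, *Il1b* and *Tnf*, and *Ackr2*, an atypical receptor. All 10 were found in the bulk table. Wild-type E14.5 mouse brains were dissociated and sorted with antibodies into neural, mural, endothelial and microglial cells. Bulk RNA-seq covered 12 libraries, 3 of each population, titled N, Mu, Ec and Mi with 3 shared numbers. Values of a population are given from the lowest to the highest number. Single cells of wild-type brains were sequenced by mCEL-Seq2 on 3 plates with the sort gate given for most wells, and plate 5 held cells of brains labelled Mof Knockout at the same stage.

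For bulk libraries microglia were gated on CD11b and CD45, endothelial cells on PECAM1 and CD102, and mural cells on PDGFRβ, while neural cells were those negative for these proteins. The index of single-cell wells names CD41 and CD45 for the microglia gate. The labels do not say which allele or driver made the *Mof* knockout, and the index of its wells gives no gate. Neural RNA was extracted with the Qiagen mini kit and made into TruSeq libraries, and the other 3 populations went through the miRNeasy Micro kit, SMART-Seq v4 and Nextera XT. Neural cells and library kit therefore cannot be told apart. Bulk libraries held between 17638358 and 98414914 reads over genes. The p-values below measure the spread between 3 libraries of a population. In bulk samples, fewer cells of a type and less RNA per cell cannot be told apart.

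Chemokines are small secreted proteins that bind receptors on leukocytes and draw those cells along a gradient. The C-C chemokines CCL2, CCL7 and CCL12 act through CCR2, the receptor best known on monocytes, whereas CCL3 and CCL4 draw macrophages and lymphocytes, and CCL3 acts through CCR1. CXCL10 is the interferon-inducible ligand of CXCR3. IL-1α and IL-1β share the receptor IL1R1, and TNF acts through TNFRSF1A and TNFRSF1B. ACKR2 binds many inflammatory C-C chemokines without classical signalling and carries them into the cell for degradation. In the brain, microglia and other macrophages are known sources of these ligands.

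The 5 C-C chemokine genes lie on chromosome 11 in 2 groups (GRCm38, GENCODE vM21). *Ccl2* (ENSMUSG00000035385, chr11:82035571-82037453), *Ccl7* (ENSMUSG00000035373, chr11:82045712-82047525) and *Ccl12* (ENSMUSG00000035352, chr11:82101845-82103400) are on the plus strand. *Ccl3* (ENSMUSG00000000982, chr11:83647844-83649355, minus strand) lies beside *Ccl4* (ENSMUSG00000018930, chr11:83662584-83664683, plus strand). *Cxcl10* (ENSMUSG00000034855) is at chr5:92346638-92348889, minus strand. *Il1a* (ENSMUSG00000027399, chr2:129299610-129309972) and *Il1b* (ENSMUSG00000027398, chr2:129364570-129371139) are on the minus strand. *Tnf* (ENSMUSG00000024401) is at chr17:35199381-35202007, minus strand, and *Ackr2* (ENSMUSG00000044534) at chr9:121898355-121911074, plus strand.

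The coding stretches around the paired cysteines that give the C-C and C-X-C families their names are shown because reads had to tell these related genes apart. They are GENCODE vM21 transcript sequences, they span exons 1 and 2, and capitals mark the codons of the 2 cysteines.

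Ccl2: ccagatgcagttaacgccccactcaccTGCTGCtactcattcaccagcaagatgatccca

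Ccl7: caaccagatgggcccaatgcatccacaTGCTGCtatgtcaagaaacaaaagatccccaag

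Ccl12: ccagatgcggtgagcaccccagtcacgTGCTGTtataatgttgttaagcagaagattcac

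Ccl3: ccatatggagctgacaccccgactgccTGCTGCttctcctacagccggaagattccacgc

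Ccl4: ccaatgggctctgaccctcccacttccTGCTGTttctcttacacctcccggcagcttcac

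Cxcl10: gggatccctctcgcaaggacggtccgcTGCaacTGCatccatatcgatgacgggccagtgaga

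The cysteine codons are adjacent in the 5 C-C genes and separated by 1 codon in *Cxcl10*. Over aligned coding sequence, *Ccl2* and *Ccl12* were identical at 69.7% of bases, *Ccl3* and *Ccl4* at 69.6%, and *Ccl2* and *Ccl7* at 69.1%. The longest run of identical coding bases shared by any pair was 17, between *Ccl2* and *Ccl12*. Sequence outside the coding part was not compared.

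Promoters were available for 7 members in the RefSeq table (GRCm38.p6), and those of *Ccl2*, *Ccl4* and *Ccl7* were not analysed here. The 3 with matches to more than 1 of the motifs searched are shown as the 250 bases before the start site, with matches in capitals.

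Cxcl10, chr5:92348890-92349139, minus strand: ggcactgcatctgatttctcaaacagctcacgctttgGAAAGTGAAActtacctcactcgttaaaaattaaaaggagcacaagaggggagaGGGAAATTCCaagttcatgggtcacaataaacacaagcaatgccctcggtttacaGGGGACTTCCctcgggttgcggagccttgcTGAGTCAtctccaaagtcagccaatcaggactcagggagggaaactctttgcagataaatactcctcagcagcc

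Ccl12, chr11:82101595-82101844, plus strand: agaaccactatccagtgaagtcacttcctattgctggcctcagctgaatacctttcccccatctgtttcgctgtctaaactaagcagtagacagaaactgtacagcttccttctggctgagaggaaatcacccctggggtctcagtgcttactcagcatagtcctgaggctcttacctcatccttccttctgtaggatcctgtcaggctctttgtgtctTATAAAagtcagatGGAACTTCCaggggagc

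Il1a, chr2:129309973-129310222, minus strand: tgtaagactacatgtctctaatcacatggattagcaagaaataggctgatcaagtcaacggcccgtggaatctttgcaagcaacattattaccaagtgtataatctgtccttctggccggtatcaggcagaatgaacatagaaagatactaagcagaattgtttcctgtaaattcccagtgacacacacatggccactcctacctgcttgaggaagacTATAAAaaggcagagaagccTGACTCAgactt

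Motifs were searched on both strands, and a match is a description only. The κB letters GGGNNNTTCC occurred in 4.65% of 32851 promoters of this length and matched at 2 places in *Cxcl10*. The palindromic letters GGAANTTCC occurred in 0.813% and matched *Ccl12* and *Cxcl10*, where the match overlaps the κB match farther from the start. The interferon response letters TTTCNNTTTC (2.98%) matched *Cxcl10* on the opposite strand. The AP-1 letters TGANTCA (6.75%) matched *Cxcl10* and *Il1a*, and TATAAA (12.4%) matched *Ccl12*, *Il1a*, *Il1b* and *Tnf*. The letters of these 5 motifs were not in the *Ccl3* and *Ackr2* windows.

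To ask which population carried the members, each was compared in bulk between 1 population and the mean of the other 3, as a log2 difference of log2(normalized count + 1) tested with limma. A gene was called at an adjusted p under 0.05 with a difference over 10-fold. All 9 ligands were called higher in microglia, against 8.27% of the 19765 genes tested. Genes were tested at a minimum mean of 10 over the 12 libraries. *Ccl4*, *Ccl12*, *Cxcl10*, *Il1a* and *Il1b* averaged under this minimum outside microglia and passed it only through microglia. Their calls and p-values, here and below, are therefore given as a description and not read as a test. *Ackr2* was called higher in endothelial cells, where 6.28% of genes were called, and *Ccl3* also in mural cells, where 4.99% were, a call that was lost with a pseudocount of 5. No member was called higher in neural cells, where limma called 13.8% of genes. At an unadjusted p under 0.05 with limma, 0 members were higher there and all 10 were lower. edgeR and DESeq2 also called 0 higher. Without the fold threshold limma called 9, 2 and 2 members in microglia, endothelial and mural cells, beside 23.4%, 19.7% and 19.3% of all genes. The median log2 difference of the 10 members in microglia was 9.49, or 8.53 with populations at 0 set to a floor of 3 reads per library, and that of all genes was -0.02.

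*Ccl4* was the most abundant member. Its normalized counts in microglia were 34194, 32058 and 48355. Mural libraries gave 37.1, 28.5 and 0.939, and the 6 endothelial and neural libraries gave 0. The groups did not overlap, and the microglial mean of 38202 ± 8857 (SD, n = 3) was at least 8129-fold higher than the endothelial floor and at least 17741-fold higher than the neural floor. The log2 difference was 13.96 ± 0.79 (SE, adjusted p = 1.60e-07 with limma). Neighbours in the order differed down to mural against endothelial cells (3.70 ± 0.97 on the log2 scale, adjusted p = 0.016).

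*Ccl3*, the neighbour of *Ccl4* on chromosome 11, reached 16334, 16738 and 22326 in microglia. Mural cells were next, with 395, 324 and 363, and all endothelial and neural libraries were at 0. Microglia exceeded mural cells 51.2-fold in the ratio of means (log2 difference 5.66 ± 0.44, adjusted p = 2.26e-06 with limma). Mural cells exceeded the mean of the other 3 populations by 3.78 ± 0.36 (adjusted p = 1.88e-05 with limma), although that mean includes the far higher microglia. This fitted value depends on the pseudocount because of the populations at 0, and with a pseudocount of 5 it was 2.24, under the fold threshold.

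The mural level of *Ccl3* was not accompanied by *Ccl4* in the microglial proportion. *Ccl4* per *Ccl3* was 2.09, 1.92 and 2.17 in the microglial libraries and 0.094, 0.088 and 0.00258 in the mural libraries. The microglia markers *C1qa*, *C1qb*, *C1qc* and *Trem2* were at 0 in all 3 mural libraries. The summed level of 12 microglia markers, 8 of them above 0 there, was 911 to 1348 in mural cells and 419951 to 488846 in microglia. Among those above 0 was *Csf1r*, at 74.3, 108 and 97.7 in the mural libraries. Of the border macrophage markers, genes of macrophages at the brain's surfaces and vessels, *Mrc1* was at 727, 380.1 and 155 and *Lyve1* at 268, 109.6 and 170.0 there, while 5 of the 8, *Pf4*, *Cd163*, *F13a1*, *Ms4a7* and *Clec4n*, were at 0 in all 3 mural libraries. The part of such cells in the mural *Ccl3* level was not tested.

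*Ccl2* was read in all 4 populations. Microglia held 5872, 5475 and 9106, mural cells 721, 1079 and 732, endothelial cells 321, 138 and 267, and neural cells 1.34, 0 and 0.264. Each population stood clear of the next, and every neighbouring pair passed the limma test. Microglia exceeded mural cells 8.08-fold (adjusted p = 0.000326) and mural exceeded endothelial cells by 1.86 ± 0.45 on the log2 scale (adjusted p = 0.0105). Against the mean of the other 3 populations, the mural difference of 2.68 ± 0.37 passed the p threshold and not the fold threshold.

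*Ccl7*, which encodes another CCR2 ligand, followed a different order. Its normalized counts were 714, 1229 and 1065 in microglia, 278, 172 and 261 in endothelial cells, 67.3, 14.8 and 27.2 in mural cells, and 0 in neural cells. Endothelial cells were above mural cells, the reverse of *Ccl2*, by 2.90 ± 0.60 on the log2 scale (adjusted p = 0.00444 with limma). Microglia exceeded endothelial cells 4.23-fold (adjusted p = 0.0217). The groups did not overlap for any neighbouring pair.

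*Ccl12*, by contrast, was read in microglia only, at 1350.3, 1730.2 and 2582, with 0 in the other 9 libraries. Its microglial mean of 1888 ± 631 (SD, n = 3) was at least 402-fold higher than the endothelial floor, 749.7-fold higher than the mural floor and 877-fold higher than the neural floor. *Cxcl10* was the lowest ligand, with 124, 355 and 191 in microglia. Its other libraries ranged from 0 to 13.1, and those 3 populations could not be ordered (adjusted p = 0.798 and 0.903 for the neighbouring pairs with limma). The microglial log2 difference of *Cxcl10* was 6.08 ± 0.84 (adjusted p = 0.000149).

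*Il1a* was by far the more abundant interleukin-1 gene, and its product is active as synthesised, whereas IL-1β must be cleaved. *Il1a* reached 11006, 7986 and 8241 in microglia, with a single nonzero library each among endothelial cells (14.2) and mural cells (7.99). Its log2 difference was 12.34 ± 0.93 (adjusted p = 1.43e-06 with limma). *Il1b* reached 1088, 1434 and 1739.9 in microglia and 0 in the other 9 libraries, so that its mean of 1420.4 ± 326 (SD, n = 3) was at least 302-fold higher than the endothelial floor. Per kb of exon, mean levels in microglia were 4598 for *Il1a* and 745 for *Il1b*.

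*Tnf* was even among microglial libraries, at 1067, 996 and 1182, a mean of 1082 ± 93.9 (SD, n = 3). Endothelial libraries held 39, 49.7 and 0, mural libraries 0, 0 and 3.76, and neural libraries 0, 0.554 and 0. Microglia exceeded endothelial cells 36.6-fold (log2 difference 6.42 ± 1.31, adjusted p = 0.00298 with limma), and the endothelial and mural levels were not told apart (adjusted p = 0.123).

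*Ackr2* was highest in endothelial cells, where *Ccl2* and *Ccl7* were also read. Endothelial libraries held 2243, 3462 and 1859.6, and microglial libraries 0. Mural libraries gave 0, 1.14 and 90.2, a spread set by 1 library, and neural libraries stayed at 0.793 or below. Endothelial cells exceeded the mean of the other 3 by 10.24 ± 1.09 on the log2 scale (adjusted p = 3.86e-05 with limma). They were at least 694-fold above the microglial floor and 82.9-fold above mural cells. The 6 lymphatic endothelial markers, looked at because ACKR2 is well known on lymphatic vessels, did not stand together in endothelial cells. *Flt4* was at 4651, 5549 and 4131 there, whereas *Lyve1* was at 0, 4.26 and 13.6, *Pdpn* at 159, 24.1 and 27.1 and *Ccl21a* at 0. The sum of the 6 was 4223 to 5665 in endothelial cells and, with *Reln* at 7218, 5788 and 8461, 8758 to 11492 in neural cells. Their part in the *Ackr2* level was not tested.

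**Figure D1:**
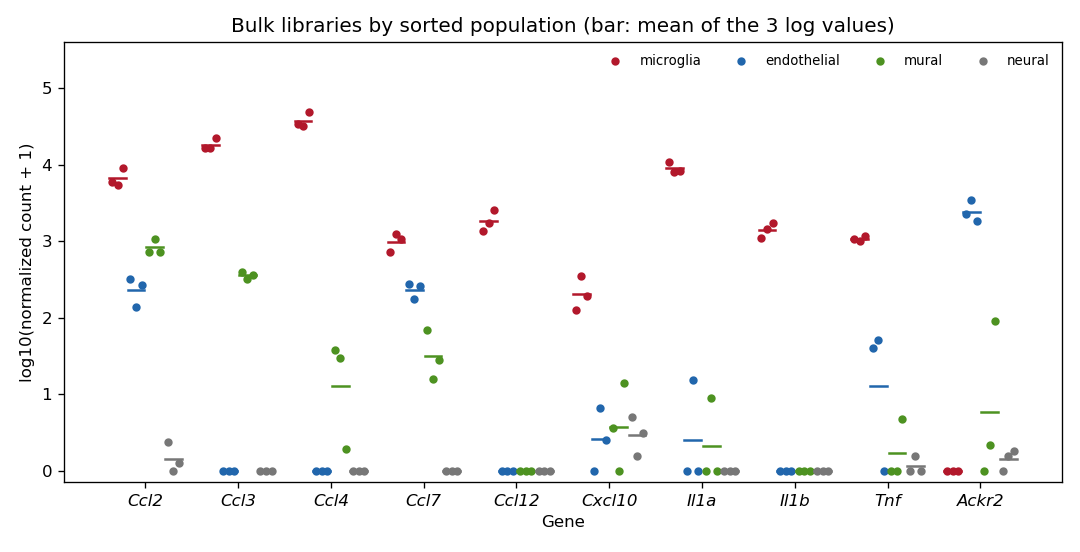
Normalized counts of the 10 genes in the 12 bulk libraries, as log10(normalized count + 1), with 3 points and a bar at the mean of the log values for each sorted population. Microglia are highest for the 9 ligands, mural and endothelial cells follow in opposite order for *Ccl2* and *Ccl7*, and *Ackr2* is highest in endothelial cells.

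The microglial libraries were not free of other myeloid RNA. The 8 border macrophage markers summed to 15656 to 20389 in microglia, 376 to 1041 in mural cells and at most 279 in endothelial and neural cells. Monocyte markers summed to 1929, 1619 and 8158 in the 3 microglial libraries, neutrophil and granule markers to 1865, 1660.2 and 2945, and mast and basophil markers to 360.2, 119.8 and 1428. The library highest for all of these was also the highest microglial library for *Ccl2*, *Ccl3*, *Ccl4*, *Ccl12*, *Il1b* and *Tnf*, but not for *Ccl7*, *Cxcl10* or *Il1a*. Without it limma still called all 9 ligands higher in microglia, with the limit on the minimum mean given above. Immediate early genes, which dissociation can induce, summed to between 519150.5 and 747821 in microglia, 136501 and 211905 in mural cells, 67707 and 118981 in endothelial cells and 37824 and 49195 in neural cells. The part of these cells and genes in the members' levels was not tested.

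The partners of the ligands were read in the same fit from lists of receptors, other ligands and regulators. Over all genes 8.27% were called in microglia, 6.28% in endothelial and 4.99% in mural cells. List genes near 0 outside microglia passed the minimum mean only through microglia. Of 13 receptors and decoys tested, 7 were called higher in microglia, among them *Ccr1* (11.01), *Ccr2* (10.62) and *Il1rn* (9.14), which encodes the IL-1 receptor antagonist. *Ccr2* stood at 1113, 1067 and 4333 in microglia, highest in that same library, and is itself one of the monocyte markers. *Tnfrsf1b* was called in both microglia (7.54) and endothelial cells (4.23). In mural cells *Ccrl2* (5.53) and *Il1r1* (5.17), the signalling IL-1 receptor, were called. In neural cells 2 of the 13 were called, *Ackr1* (6.94) and *Ackr3* (5.09), beside 13.8% of all genes.

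Of 14 other inflammatory ligands tested, 9 were called in microglia, beside 8.27% of all genes, led by *Ccl9* (10.88), *Osm* (9.60), *Ccl6* (8.70) and *Ccl24* (7.99). *Cxcl1* (4.84) and *Ccl11* (3.72) were called in mural cells, beside 4.99% of all genes. Among 8 genes of cytokine release, 6 were called in microglia, including the inflammasome sensor *Nlrp3* (11.23), its protease *Casp1* (11.04), *Casp4* (7.08) and the pore-forming *Gsdmd* (4.75). In neural cells 1 of the 8, *Panx1* (3.53), was called, beside 13.8% of all genes.

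Signalling and response genes were read in the same way, again beside 8.27% of all genes called in microglia. Of 14 NF-κB genes, 3 were called in microglia, namely *Zfp36* (6.30), which promotes decay of cytokine mRNAs, *Rel* (4.06) and *Nfkbiz* (3.51). Of 10 interferon-linked genes, *Oasl1* (5.40), *Irf7* (4.16) and *Ifit1* (3.77) were called in microglia. *Ifit1* alone was called in endothelial cells (3.97), where 6.28% of all genes were, a share near 1 of 10. Of 12 immediate early genes, *Atf3* (5.75), *Junb* (4.03), *Fosb* (3.49) and *Dusp1* (3.34) were called in microglia. Median log2 differences in microglia were 6.49 for receptors, 5.07 for other ligands, 4.65 for release, 1.83 for NF-κB, 3.04 for interferon-linked and 3.22 for immediate early genes, beside -0.02 for all genes.

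Genes with the most similar pattern over the 12 libraries were found by Pearson correlation of log2 values among all genes tested, given here as a description. They were *Mob3c* for *Ccl2* (r = 0.9934), *D5Ertd605e* for *Ccl7* (0.9921), *Clec4a3* for *Ccl12* (1 after rounding), *2310034O05Rik* for *Ccl3* (0.9928) and *Gm26714* for *Ccl4* (0.9864). *Cd180* was closest to *Cxcl10* (0.9739), *Spi1*, a myeloid transcription factor, to *Il1a* (0.9878), *Cd86* to *Il1b* (1 after rounding), *Asb10* to *Tnf* (0.9924) and *Ttc23l* to *Ackr2* (0.9917). Points within a population share its cells and preparation, so a gene near 0 in 3 populations and high in the other reaches a high r.

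Single cells were then read by sort gate. After a minimum of 1500 transcripts, 686 wild-type cells remained, with 128 from the microglia gate, 225 endothelial, 210 mural and 123 neural. Median transcripts per cell were 10761, 6408, 6885 and 7717, so microglia were the deepest. Detected markers were mostly those of the own gate in 128 of 128 microglia, 208 endothelial, 193 mural and 121 neural cells. All microglia wells of a plate lay in 1 library, 64, 58 and 6 cells on plates 1, 2 and 3. The same 192 barcodes were reused across the 11 libraries and are not shared cells.

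*Ccl3* was detected in 104 of 128 microglia-gate cells or 81.2% (exact 95% interval 73.4 to 87.6). *Ccl4* was detected in 74.2% (65.7 to 81.5) with more transcripts, 1574 against 835, and the 2 intervals overlap. The share with *Ccl3* was 82.8%, 79.3% and 83.3% on plates 1, 2 and 3, and that with *Ccl4* 75%, 72.4% and 83.3%. Intervals here and below cover counting error only.

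*Il1a* was detected in 57.8% of microglia-gate cells (48.8 to 66.5), *Tnf* in 38.3% (29.8 to 47.3) and *Ccl2* in 22.7% (15.7 to 30.9). *Il1b* was found in 17.2% (11.1 to 24.9) and *Ccl12* in 12.5% (7.32 to 19.5). *Cxcl10* was in 5.47% (2.23 to 10.9) and *Ccl7* in 2.34% (0.486 to 6.7), from 7 and 3 cells. The *Ccl2* share moved with the plate, at 29.7% on plate 1, 12.1% on plate 2 and 50% of the 6 cells on plate 3.

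Neural-gate cells, which should lack these ligands, served as the background. Among 123 such cells *Ccl4* was found in 1 and *Il1a* in 2, and the other 8 members in 0, which allows a share of up to 2.44%. Both cells with *Il1a* were among the 14 neural cells whose library also held microglia wells. The limit given for a share of 0, here and below, is 3 counts of the total and bounds cells with a transcript, not cells expressing the gene. The microglia intervals of 7 ligands lay above the neural ones, while those of *Cxcl10* and *Ccl7* overlapped them. After each cell was thinned to 1500 transcripts, with no cell left out, microglia shares were 52.3% for *Ccl4*, 43.3% for *Ccl3*, 25.3% for *Il1a*, 10.9% for *Tnf*, 8.13% for *Ccl2*, 7.44% for *Il1b*, 3.37% for *Ccl12*, 2.16% for *Cxcl10* and 0.573% for *Ccl7*, with *Ccl4* now ahead of *Ccl3*. The thinned neural shares of *Ccl4* and *Il1a* were 0.105% and 0.211%.

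**Figure D2:**
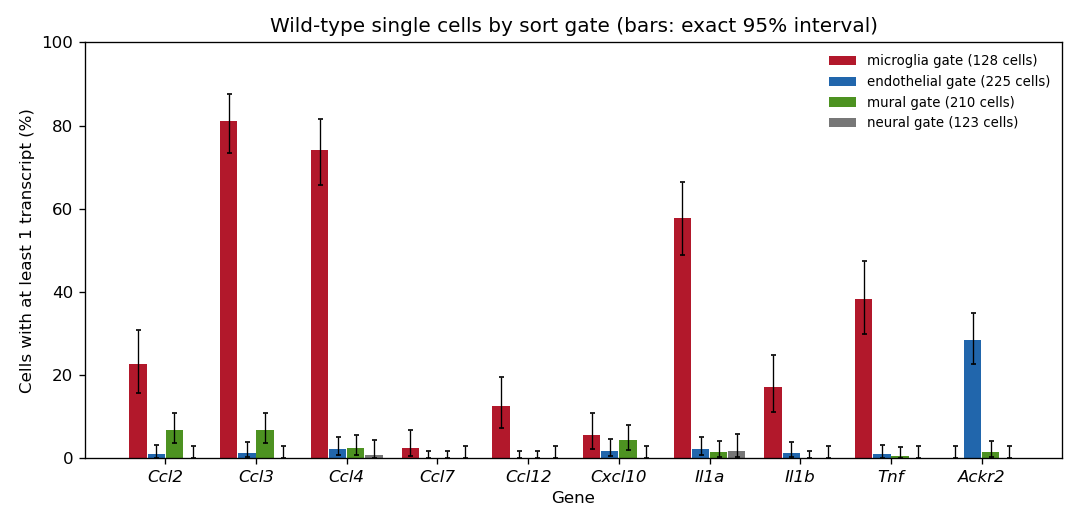
Share of wild-type cells with at least 1 transcript of each gene by sort gate, with exact 95% intervals. The bars of *Ccl3*, *Ccl4* and *Il1a* stand above 50% in the microglia gate, and *Ackr2* reaches 28.4% in the endothelial gate only.

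For a test between gates, transcripts were added up within each plate and gate and fitted with edgeR, which called 4.61% of 9281 genes higher in the microglia gate. Of the 10 members, 6 passed its filter on low counts, and none of these would have passed without the microglia sums, so their calls there are not read as a test. Their fitted log2 differences, given as a description, were 8.66 for *Ccl4*, 8.16 for *Ccl3*, 7.56 for *Il1b*, 7.09 for *Tnf*, 6.46 for *Il1a* and 5.82 for *Ccl2*. *Ccl7*, *Ccl12*, *Cxcl10* and *Ackr2* did not pass the filter. With no filter beyond 1 count edgeR called the 9 ligands in the microglia gate, beside 3.68% of 21377 genes, *Ccl7* among them from 8 transcripts that all came from plate 1. *Ccl7* and *Ccl12* had 0 transcripts in the other gates, so these calls are likewise a description.

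*Ackr2* was detected in 64 of 225 endothelial-gate cells, 28.4% (22.6 to 34.8), and in 0 of 128 microglia, which allows up to 2.34%. In the mural gate 3 of 210 cells held a transcript and in the neural gate 0 of 123. Plates 1, 2 and 3 gave 63, 37 and 1 transcripts, the last from 13 cells. All 64 positive cells had mostly endothelial markers, beside 144 of the 161 cells of the gate without a transcript. Thinned to 1500 transcripts, the share was 8.38% in the endothelial and 0.288% in the mural gate. *Ackr2* was not in the main edgeR table, in which 3.02% of genes were called in the endothelial gate. It was called there without the filter (beside 2.54% of genes), without plate 3 and in cells with mostly their own markers. Outside the endothelial gate it had 4 transcripts, all in the mural gate, so these calls are not read as a test.

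Transcripts of 3 chemokines were looked at in mural-gate cells. *Ccl2* and *Ccl3* were each found in 14 of 210 cells, 6.67% (3.69 to 10.9), and *Cxcl10* in 9 cells, 4.29% (1.98 to 7.98). The *Ccl2* and *Ccl3* lower bounds lay above the 2.44% that 0 of 123 neural cells allows, and the *Cxcl10* lower bound did not. *Ccl4* was at 5 transcripts beside 18 of *Ccl3*, a ratio of 0.278, whereas the microglia gate gave 1.89. In libraries without microglia wells *Ccl3* was found in 8 of 159 mural cells, 5.03% (2.2 to 9.67), with 9 transcripts against 1 of *Ccl4*, and in libraries with them in 6 of 51 cells, with 9 against 4. The lower bound of 2.2% lies under the 2.75% that 0 of 109 neural cells in such libraries allows. *Ccl2* was found in 12 of 159 cells, 7.55% (3.96 to 12.8), and in 2 of 51. This division by library was made after the data were seen. Of the positive cells, 14 of 14 for *Ccl2* and 12 of 14 for *Ccl3* had mostly mural markers, beside 179 and 181 of the 196 cells without the gene. Cells with *Ccl3* held a median of 1 microglia marker and those without it 0. For *Ccl2* both medians were 0. edgeR called neither gene in the mural gate (log2 difference 1.61 and 0.25, adjusted p = 0.117 and 0.644).

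In the endothelial gate *Ccl7*, at 237 ± 57.1 (SD, n = 3) in the bulk libraries, was found in 0 of 225 cells, which allows up to 1.33%. It was found in 3 of 128 microglia, and no order of the populations is given for *Ccl7* in single cells. Endothelial-gate transcripts of *Ccl3*, *Ccl4* and *Il1a* numbered 7, 11 and 13, and the 4 cells of that gate with mostly microglia markers held most of them. In the 208 cells with mostly endothelial markers, 2, 4 and 2 transcripts remained.

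The ligands were spread differently over microglia. For *Ccl4*, *Ccl3* and *Il1a* the 6 highest of 128 cells held 24.6%, 25.7% and 29.5% of transcripts. For *Tnf* they held 37.1%, for *Ccl2* 63.9%, for *Ccl12* 68.6%, for *Il1b* 69.6% and for *Cxcl10* 97.1%. A single cell held 37.2 of the 105 *Ccl2* transcripts and another 20 of the 34.1 *Cxcl10* transcripts, so sums of these genes rest on few cells. The 8 transcripts of *Ccl7* came from 3 cells, 6 of them from 1 cell.

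**Figure D3:**
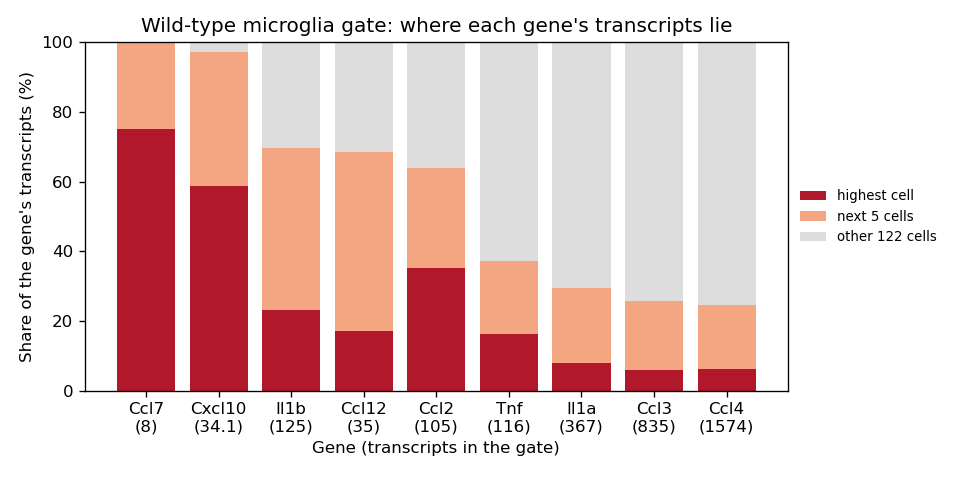
Share of each ligand's transcripts in the wild-type microglia gate held by the highest cell, the next 5 cells and the other 122 cells, with the transcript total under each name. *Ccl7* and *Cxcl10* lie almost wholly in 6 cells, whereas *Ccl3* and *Ccl4* are spread over many.

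A microglia-gate cell held transcripts of a median of 3 members. No member was found in 5 cells, whose median depth was 2602 transcripts, and 5 or more in 24 cells, with a median depth of 10623. *Ccl3* and *Ccl4* were found together in 86 cells, neither in 15, *Ccl3* alone in 18 and *Ccl4* alone in 9. *Il1b* came with *Il1a* in 18 of 22 cells. All 3 cells with *Ccl7* also held *Ccl2*, *Ccl3* and *Il1a*. *Ccl12* and *Ccl2* coincided in 8 cells, 50% of those with *Ccl12* and 27.6% of those with *Ccl2*. Detection in the same cell also moves with that cell's depth.

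Bulk and single-cell levels in microglia were set side by side as normalized counts per kb of exon and transcripts per 1000000 (CPM), which are different scales. *Ccl4* ranked 19 of 19737 genes in bulk, at 57882 per kb, and 88 of 15232 in single cells, at 1148 CPM. *Ccl3* ranked 43, at 24107 per kb, and 189, at 609 CPM. Both assays thus put *Ccl4* before *Ccl3* and these before the other ligands.

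The places of the remaining ligands were as follows. *Ccl2* was at place 3 of the 9 ligands in bulk (5991 per kb) and 6 in single cells (76.8 CPM), and *Ccl7* at place 6 (1252 per kb) and 9 (5.84 CPM). *Ccl12* went from place 5 (3515 per kb) to 7 (25.6 CPM). *Il1b*, at place 7 in bulk (745 per kb), was at 4 in single cells (91.4 CPM), and *Tnf* went from 8 (660.1 per kb) to 5 (84.7 CPM). *Il1a* (4598 per kb, 268 CPM) and *Cxcl10* (99.1 per kb, 24.8 CPM) moved by 1 place. Single-cell places 4 to 6 were not told apart, with Poisson intervals of 76.1 to 109 CPM for *Il1b*, 70 to 102 for *Tnf* and 62.8 to 92.9 for *Ccl2*, nor were places 7 and 8, and plate 1 put *Ccl2* (79.9) before *Tnf* (77). The bulk kit reads along transcripts and mCEL-Seq2 reads their 3′ ends.

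**Figure D4:**
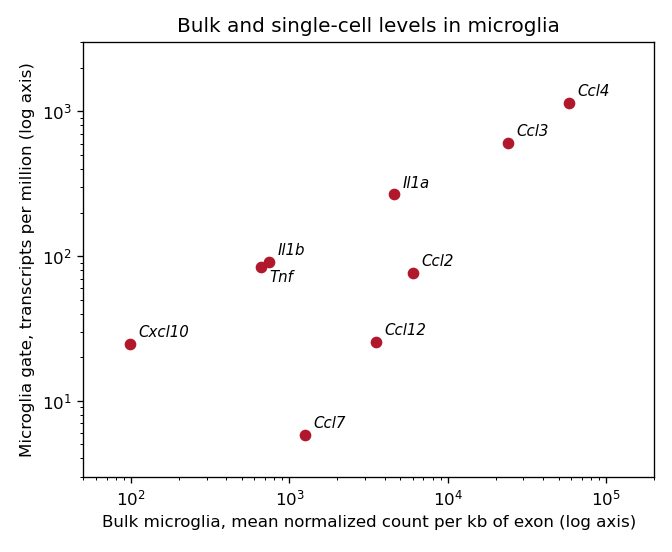
Mean normalized count per kb of exon in the 3 bulk microglial libraries against CPM in the wild-type microglia gate, both on log axes, 1 point per ligand. *Ccl4* and *Ccl3* lead in both, *Ccl7* is lowest on the single-cell axis, and *Cxcl10* is lowest on the bulk axis.

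Knockout plate 5 was 1 plate of 4 libraries with 195 kept cells and a median of 8032 transcripts. Genotype and plate cannot be told apart, no test was made, and the values describe these libraries. The targeted gene *Kat8*, which encodes MOF, was at 13.7 CPM (exact Poisson interval 6.84 to 24.5) in microglia-marker cells and 14.6 (8.92 to 22.5) in the wild-type microglia gate. A 3′ tag does not check a deletion elsewhere in the gene. Since no gate is given, cells were divided by their detected markers, and 80 had mostly microglia markers, 112 mostly neural markers and 3 were tied. In neural-marker cells no member exceeded 5 transcripts. *Kat8* was at 7.67 CPM (3.08 to 15.8) there, beside 22.8 (14.3 to 34.5) in the wild-type neural gate, and the intervals overlap.

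In the 80 microglia-marker cells *Ccl4* and *Ccl3* again led, at 766 and 479 CPM. *Il1a* was at 59.8 CPM (44.1 to 79.3) beside 268 (241 to 297) in the wild-type gate, a ratio of 0.223 (0.162 to 0.302), and was detected in 25% and 57.8% of cells. The 4 libraries of this 1 plate gave 54.6, 39.7, 204 and 21.6 CPM, the last 2 from 8 and 11 cells. The 3 wild-type plates gave 281, 241 and 434, the last from 6 cells. How many of all genes differed as far between plate 5 and the wild-type plates was not computed, for *Il1a* or for the ratios below.

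*Ccl12*, in contrast, was at 67.3 CPM beside 25.6, a ratio of 2.63 (1.69 to 4.15), in 27.5% and 12.5% of cells. *Ccl7* was at 62.3 CPM beside 5.84, a ratio of 10.7 (5.02 to 26), from 10 and 3 cells. Ratios for the other ligands were 0.667 for *Ccl4*, 0.786 for *Ccl3*, 1.43 for *Il1b*, 1.48 for *Ccl2*, 2.17 for *Tnf* and 2.76 for *Cxcl10*. Several moved when 1 library was left out. Without library 5 the *Ccl2* ratio turned to 0.853 (0.553 to 1.29), and that of *Il1b* was 1.25 (0.891 to 1.73). *Ccl4* was between 0.424 without library 5 and 0.882 (0.796 to 0.975) without library 6, and *Cxcl10* between 1.83 (1.1 to 3.05) without library 7 and 3.83 without library 5. Without library 6 *Ccl3* was at 0.909 (0.79 to 1.04). With each library left out in turn, *Il1a* stayed between 0.165 and 0.268, *Ccl12* between 2.16 and 3.28, *Ccl7* between 9.22 and 12.3 and *Tnf* between 1.56 and 2.95. Leaving out libraries in these ratios was added after the data were seen. *Ackr2* was in 0 of 80 cells, which allows up to 3.75%. In 1 cell of library 8, 52.3 of the 147 *Tnf* transcripts were counted.

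The microglia-marker cells of plate 5 also held border macrophage markers, with 7 of 8 detected and a sum of 1616 CPM, beside 5 of 8 and 169 in the wild-type gate. *Cbr2* was at 0 in both. The markers *Pf4* (466 beside 7.3 CPM) and *Lyve1* (189 beside 0) were among them, and immediate early genes summed to 3849 beside 6007. A border marker was held by 49 of the 80 cells. Among cells with and without the gene, the share holding one was 90% and 57.1% for *Ccl7* (10 cells with it), 87.5% and 58.3% for *Cxcl10* (8 cells), 85% and 53.3% for *Ccl2*, 82.6% and 52.6% for *Tnf* and 73.1% and 39.3% for *Ccl3*. It was 62.7% and 58.6% for *Ccl4*, 63.6% and 60.3% for *Ccl12*, 60% and 61.5% for *Il1b* and 50% and 65% for *Il1a*. In the wild-type gate 57 of 128 cells held a border marker, and the same shares were 100% and 43.2% for *Ccl7* (3 cells), 57.1% and 43.8% for *Cxcl10* (7 cells), 44.8% and 44.4% for *Ccl2*, 44.9% and 44.3% for *Tnf* and 46.2% and 37.5% for *Ccl3*. They were 45.3% and 42.4% for *Ccl4*, 56.2% and 42.9% for *Ccl12*, 50% and 43.4% for *Il1b* and 37.8% and 53.7% for *Il1a*.

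In cells without any border marker transcript, 31 on plate 5 and 71 in the wild-type gate, the *Ccl2* ratio was 0.266 (0.0523 to 0.846) and the *Tnf* ratio 0.266 (0.0944 to 0.61), both turned in direction. The turn rests on few counts, 3 *Ccl2* and 6 *Tnf* transcripts on plate 5 beside 34 and 68 in the wild-type gate. *Il1a* remained lower at 0.29 (0.18 to 0.446), and *Ccl12* higher at 2.86 (1.41 to 5.75). *Ccl3* was at 0.993, *Ccl4* at 0.804, *Cxcl10* at 1.28 and *Il1b* at 1.87. *Ccl7* fell to 1 transcript against 0, so no ratio is given. In these cells monocyte markers summed to 149.6 CPM on plate 5 and 56.7 in the wild-type gate, and microglia markers to 13833 and 17753. Neutrophil and granule markers summed to 116 and 17 CPM, the former mostly from *S100a8* in 1 cell. The part of these differences in the ratios was not tested. Leaving out border-marker cells was chosen after the data were seen.

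**Figure D5:**
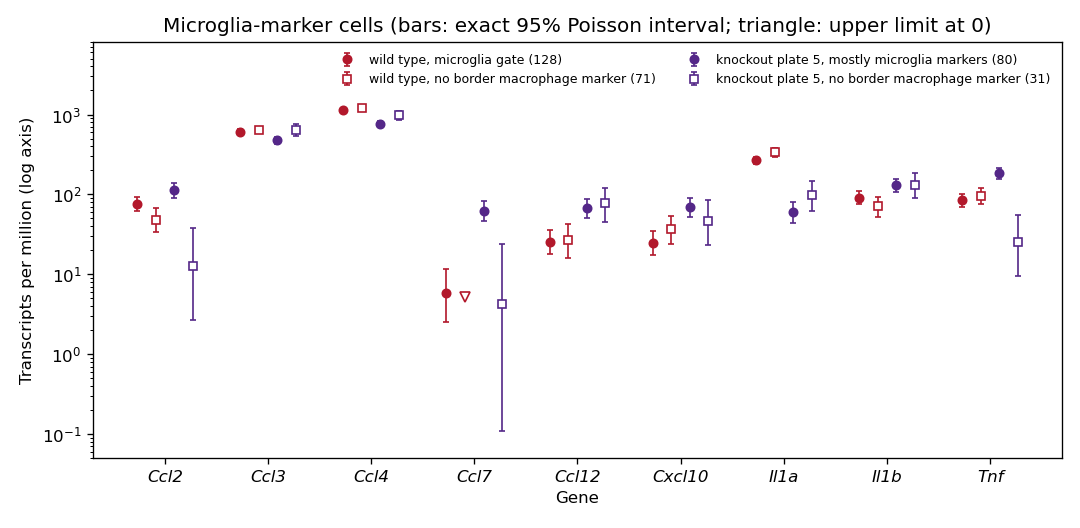
CPM of the 9 ligands, on a log axis with exact 95% Poisson intervals, in the wild-type microglia gate and in microglia-marker cells of knockout plate 5, for all such cells and for those without a border macrophage marker. *Il1a* is lower and *Ccl12* higher on plate 5 in both sets, while *Ccl2* and *Tnf* change sides. Without a border marker these 2 rest on 3 and 6 transcripts on plate 5.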

How the data were processed

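The 10 members and all gene lists were chosen with earlier results of these data known. Bulk values are normalized counts, a linear signal as the authors deposited it. Whole reads were recovered from 100% of 124078 values up to 100 reads, within 0.01. The submitters' processing notes name BWA 0.6.2-r126, STAR, featureCounts, DESeq2 and mm10, without roles. For single cells the authors deposited expected transcript counts corrected from unique identifiers, rounded here after summing.

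Bulk values were fitted as log2(normalized count + 1) over 12 libraries with limma 3.58.1 in R 4.3.3, a trended prior and no block, for genes with a mean of at least 10, all tests two-sided with Benjamini-Hochberg adjustment over 19765 genes. Sums per plate and gate were fitted with edgeR 4.0.16 (quasi-likelihood, TMM, filterByExpr). DESeq2 1.42.0 and edgeR on recovered reads, other pseudocounts, filters and thresholds, blocks and omitted replicates were alternatives. Cells needed more than 1500 transcripts without spike-ins, and no doublet caller was run. Wells whose index names no gate (23 kept) and knockout plates 4 and 6 were not used. Shares carry exact Clopper-Pearson intervals. A share of 0 is given with 3 counts of the total. A fold against a population at 0 used a floor of 3 reads per library.

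Named genes were all members, up to 4 called genes per list with the largest difference and for each member the gene with the highest correlation. List genes named beyond that, such as those called in other populations, were chosen after their values were seen. 1 list gene that the rule names is not reported here. The scripts were tested on simulated data. Cells and sequences were read with pandas 2.3.3, biopython 1.88, numpy 2.4.6 and Python 3.11.15, intervals came from scipy 1.17.1 and plots from matplotlib 3.10.9.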

Additional observations from a re-analysis of the deposited data

Results flagged for a closer look

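On knockout plate 5, *Ccl2* was at 112 CPM (transcripts per 1000000) in library 5, over all kept cells, beside 31.1, 25 and 17.2 in libraries 6, 7 and 8, a library far from the others. In microglia-marker cells of the same plate, *Ccl7* was at 140 CPM in library 7, which held 8 such cells, beside 60.7, 46.3 and 54.1 in libraries 5, 6 and 8. In all, 18 groups of 4 libraries were looked at, and chance alone sets a library apart in about 5% of groups. Columns of the single-cell tables that match no listed well also held transcripts, 1.83% of the total over the 11 wild-type libraries. Among them were 4 transcripts of *Ccl4* in library 5 of plate 2 and 4 of *Il1a* in library 9 of plate 3, libraries without microglia wells.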

How the results depend on the processing

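The 9 ligands called higher in bulk microglia, not all of them read as a test, stayed 9 under every alternative run. *Ackr2* stayed called in endothelial cells. The count of members higher in endothelial cells rose from 1 to 2, with *Ccl7*, under edgeR, under DESeq2, without a fold threshold and with a 4-fold threshold. The count in mural cells was 0 with a pseudocount of 5, where *Ccl3* fell under the fold threshold (2.24), and 2, with *Ccl2*, under DESeq2, without a fold threshold and with a 4-fold threshold. Pathway genes called in microglia went from 32 to 54 without a fold threshold, and the share of all genes from 8.27% to 23.4%. The endothelial difference of *Ccl2*, 0.20, turned to -0.42 with a pseudocount of 5 and passed the threshold under neither. With the library number as a block, 9, 1 and 1 members were called in microglia, endothelial and mural cells. With the plate as a block 6 were called in the microglia gate of single cells, which is not read as a test there either. Residuals of same-numbered libraries correlated at -0.054 to 0.080, so the numbers were not taken as pairs. Of 99 alternatives for plate 5 levels and ratios, 34 moved beyond their interval, among them *Tnf* without library 8 (66 from 86.3 CPM over all kept cells) and *Ccl2* without library 5 (25.9 from 52.6). In the wild-type microglia gate *Ccl7*, *Ccl12* and *Cxcl10* rest on 8, 35 and 34.1 transcripts.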
